A study of Homo sapiens with 6 samples.

Results

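The canonical Y RNA genes RNY1, RNY3, RNY4 and RNY5 were followed in small RNA of HEK293T, a human embryonic kidney cell line of epithelial type, after knockdown of La. La is the RNA-binding protein encoded by SSB. Both arms were transfected with siRNA at 150 nM by Lipofectamine RNAiMAX and collected after 48 hours, one with a control siRNA and the other with an siRNA against La. Each arm had 3 biological replicates, which makes 6 libraries of a single cell line, and no untransfected cells were among them. The sequence and number of siRNAs were not given in the sources used here. Reads were counted in windows of 400 bp set around start sites, with 150 bp before the site and 250 bp after it. The members were the windows labelled Y_RNA on chromosome 7 that started between 148.9 and 149.1 Mb (GRCh38). This rule used label and position and no measured value, and it found 4 of the 73 windows labelled Y_RNA and of 53603 windows in all.

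Y RNAs are small noncoding RNAs made by RNA polymerase III and folded into a stem and loop. The Ro protein (RO60) binds the lower stem, and La binds the run of uridines at the 3′ end, where RNA polymerase III terminates. They are known for roles in RNA quality control and in the start of DNA replication, and their fragments are common in small RNA libraries.

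RNY1 and RNY4, the pair with the highest counts, are shown from the GENCODE 29 transcripts. Capitals mark the 11 first bases that they share, which lie in the lower stem, and the final run of T (U in the RNA). The capitals do not outline the whole part that Ro binds.
RNY1: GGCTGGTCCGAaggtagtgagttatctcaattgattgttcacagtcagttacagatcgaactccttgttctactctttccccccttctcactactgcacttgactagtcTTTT
RNY4: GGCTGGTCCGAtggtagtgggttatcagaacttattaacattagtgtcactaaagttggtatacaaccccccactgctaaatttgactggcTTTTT

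The final T run was 4 bases in RNY1 and 5 in RNY4. By global alignment RNY1 and RNY4 were identical at 73 of 113 positions (64.6%). Of 809 Y RNA transcripts in GENCODE 29 outside the members, 35 (4.33%) began with the same 11 bases, 47 (5.81%) ended in 4 or more T, and 2 had both features. The 11 bases were those that RNY1 and RNY4 share, and 4 T is the run of RNY1. That RNY1 and RNY4 have both features was thus fixed in advance, and these counts only describe the copies.

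Each window held its whole gene with flanks. On GRCh38 chromosome 7, RNY5 lay at 148941488 to 148941571 (84 nt, plus strand) and RNY4 at 148963315 to 148963410 (96 nt, plus strand). RNY3 lay at 148983755 to 148983856 (102 nt, plus strand) and RNY1 at 148987136 to 148987248 (113 nt, minus strand). The strand of RNY5 was read from the side on which its window was placed. No other GENCODE 29 gene and no other counted window overlapped a member window. The nearest neighbour was the lincRNA gene GHET1, 129 bp from the RNY1 window. A count in such a window can hold small RNA of the gene, whole or in fragments, reads from its flanks and reads shared with copies elsewhere. Read lengths, strand use and the treatment of multiply mapped reads were not given in the sources used here.

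Libraries held from 3066299 to 4105806 counts, and 1064 windows had enough reads to be tested. Counts of the small RNA at a promoter do not measure mRNA, so the depth of the knockdown and markers of the kidney epithelium could not be checked. The SSB window PCG_40419 had 4, 3 and 3 counts in the controls against 1, 0 and 0 after La knockdown. A second SSB window, PCG_12982, had 0, 0 and 1 against 0, 2 and 0, so these few counts give no measure of the knockdown. La knockdown replicate 2 stood apart in several measures below. It had the highest share of counts in rRNA windows, 54.5%, against a range from 34.3% to 46.7% in the other libraries.

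The 4 members were among the well-read windows of the study. By total count over the 6 libraries RNY4 ranked 7, RNY1 ranked 27, RNY5 ranked 35 and RNY3 ranked 174 among all windows. Together they held 3.02%, 3.09% and 3.56% of the counts of control replicates 1 to 3. The knockdown replicates, in the same order, had 3.05%, 2.46% and 3.64%. The knockdown arm held both the lowest and the highest share, so the arms overlapped. The control mean was 3.22% ± 0.293 and the knockdown mean 3.05% ± 0.594 (SD, n = 3 each, two-sided exact permutation test, p = 0.8, smallest possible 0.1). Outside rRNA windows the members held 5.36% ± 0.90 of the counts of control libraries and 5.75% ± 0.369 of those of La knockdown libraries (SD, n = 3, exact permutation p = 0.5). The sign of the difference thus turned with the denominator, from -0.174 to 0.385 percentage points. Without La knockdown replicate 2 the difference in the share of all counts was 0.123 percentage points.

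Per length of the gene, the levels followed the order RNY4, RNY5, RNY1 and RNY3. Levels are given as CPM, counts scaled by library size and TMM (trimmed mean of M values) factors. Per 100 nt of gene, the CPM level of RNY4 was 13748 ± 640 in the control arm (SD, n = 3). That of RNY5 was 9002 ± 938, that of RNY1 8086 ± 1146 and that of RNY3 1498 ± 586. In the La knockdown arm the levels per 100 nt were 14512 ± 3152 for RNY4, 8496 ± 2852 for RNY5, 8239 ± 341 for RNY1 and 1064 ± 235 for RNY3 (SD, n = 3). RNY4 was the highest and RNY3 the lowest of the 4 in 6 of 6 libraries. Per length, RNY5 and RNY1 did not differ beyond their spread, since RNY5 was higher in 4 libraries and RNY1 in 2. Without the division by length RNY1 was above RNY5 in each library but control replicate 1. The means were then 9137 against 7562 CPM in the control arm and 9310 against 7137 CPM in the La knockdown arm. The order of RNY1 and RNY5 thus depends on that division. Whether counts scale with gene length was not tested. Within a library the per-length level of RNY3 was from 0.0728 to 0.154 of that of RNY4.

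RNY4 is known as the source of 5′ fragments that are common in extracellular RNA. Its window had 51980, 42240 and 52231 counts in control replicates 1 to 3 against 41917, 35674 and 51603 in the knockdown replicates. On the CPM scale these were 13568, 12489 and 13538 against 15029, 10510 and 16256. The controls lay between the knockdown libraries, of which replicate 2 was the lowest and replicate 3 the highest. The log2 fold change of RNY4, as La knockdown against control, was 0.08 (SE 0.22, 95% interval -0.40 to 0.56, edgeR quasi-likelihood test, adjusted p = 0.824).

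RNY1 encodes a Y RNA that associates with nucleolin as well as with Ro and La. Its window had 31439, 29048 and 40958 counts in the controls against 26147, 30196 and 30661 after knockdown. On the CPM scale these were 8206, 8589 and 10616 against 9375, 8896 and 9659, so the knockdown values all lay within the range of the controls. The log2 fold change of RNY1 was 0.03 (SE 0.20, 95% interval -0.41 to 0.47, edgeR adjusted p = 0.927).

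RNY5 encodes the shortest of the 4 and is known as a mainly nuclear Y RNA. Its window had 32167, 25223 and 26355 counts in the controls against 22013, 15121 and 28772 after knockdown. On the CPM scale these were 8396, 7458 and 6831 against 7893, 4455 and 9064. La knockdown replicate 2 was the lowest of the 6 libraries and replicate 3 the highest. The log2 fold change of RNY5 was -0.08 (SE 0.27, 95% interval -0.68 to 0.51, edgeR adjusted p = 0.851), and without La knockdown replicate 2 it was 0.15.

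RNY3 encodes a Y RNA that has been tied to 3′ end processing of histone mRNA. Its window had 8492, 4124 and 4430 counts in the controls against 3292, 2759 and 4012 after knockdown. On the CPM scale these were 2217, 1219 and 1148 against 1180, 813 and 1264. Control replicate 1 was well above the other 5 libraries, and La knockdown replicate 2 was the lowest. The log2 fold change of RNY3 was -0.49 (SE 0.30, 95% interval -1.17 to 0.18, edgeR unadjusted p = 0.134, adjusted p = 0.302). Without control replicate 1 it was -0.13.

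**Figure D1:**
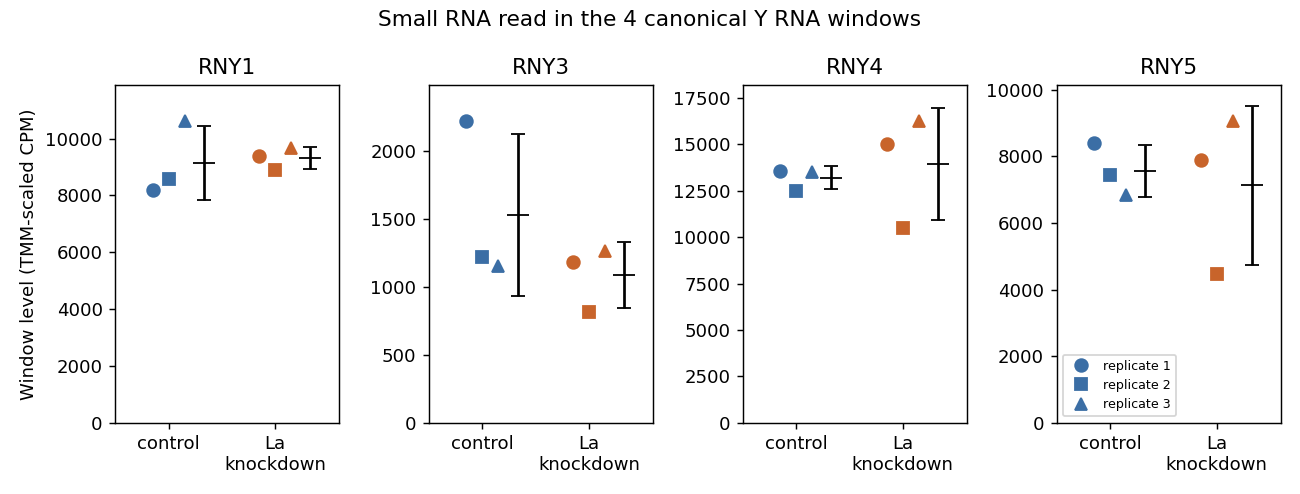
Level of each canonical Y RNA window in TMM-scaled CPM (y axis, from 0, a scale of its own for each gene) in the 3 control libraries (blue) and the 3 La knockdown libraries (orange), with the mean ± SD of each arm as a black bar. The arms overlap for all 4 genes, control replicate 1 is the high RNY3 value at 2217 CPM, and La knockdown replicate 2 is the low RNY5 value at 4455 CPM.

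None of the 4 members passed the threshold, either with edgeR or with DESeq2, and none had an unadjusted p under 0.05 in either (0 of 4 each). Across all windows tested, 5.45% were called with edgeR in either direction, 0.658% as higher and 4.79% as lower. At an unadjusted p under 0.05 edgeR had 23.9% of them. The CPM ranges of the arms overlapped for all 4 members, while they did not overlap for 32% of the windows tested. With so few members, 0 of 4 is not far from the share called in the background. In fold terms they ran from 0.751 to 1.38 for RNY1, from 0.756 to 1.47 for RNY4, from 0.625 to 1.43 for RNY5 and from 0.446 to 1.13 for RNY3. Changes within these intervals were not excluded, and a halving of RNY1, RNY4 or RNY5 lay outside their intervals.

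The authors' deposited table did not call a member either (adjusted p of 1 for each), where 0.153% of all windows were called. The authors' deposited table gave log2 fold changes of -0.24 for RNY1, -0.73 for RNY3, -0.17 for RNY4 and -0.31 for RNY5, with no SE. The average log2 CPM of RNY5 was 12.06 in the authors' deposited table and 12.84 in the fit here, and that of RNY3 was 9.89 and 10.35. The libraries and scaling behind the authors' deposited table were not given in the sources used here, so what sets these gaps was not tested. All 4 log2 fold changes were below those fitted here, and the unadjusted p of RNY3 in the authors' deposited table was 0.0139.

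Scaling shifted the 4 members together. With upper quartile factors the median over all windows was 0.32 higher on the log2 scale, and the log2 fold changes of RNY1, RNY4, RNY5 and RNY3 were then 0.34, 0.40, 0.24 and -0.16. With no filter on low counts the shift of that median was -0.25, and the values were -0.22, -0.16, -0.32 and -0.75. These lay near the authors' deposited values of -0.24, -0.17, -0.31 and -0.73 in the same order. Whether a filter sets the gap to the authors' deposited table was not tested. The signs of RNY1, RNY4 and RNY5 followed the shift, and RNY3 was the lowest of the 4 under both settings. No adjusted p of a member was under 0.198 in any alternative tried. The lowest unadjusted p was that of RNY3 without a filter, 0.00713 (edgeR adjusted p = 0.581).

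**Figure D2:**
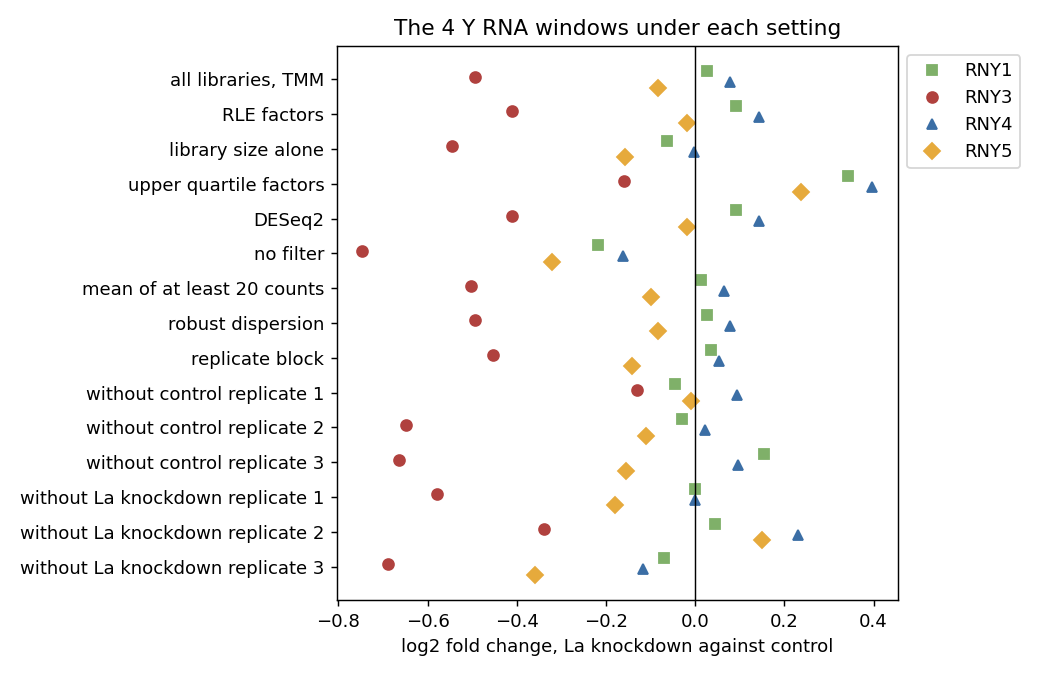
Log2 fold change, La knockdown against control (x axis), of RNY1, RNY3, RNY4 and RNY5 with all libraries and TMM factors (top) and under each alternative (rows). RNY3 lies below 0 in each row, from -0.75 without a filter to -0.13 without control replicate 1, while the other 3 lie on both sides of 0.

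The make-up of the Y RNA counts needs no scaling between libraries. RNY4 gave 41.9%, 42.0% and 42.1% of the summed counts of the 4 windows in control replicates 1 to 3, against 44.9%, 42.6% and 44.9% in the knockdown replicates. RNY3 gave 6.84%, 4.10% and 3.57% in the controls against 3.53%, 3.29% and 3.49% after knockdown. For RNY4 each knockdown library was above each control library, and for RNY3 each was below, by a small margin for La knockdown replicate 1 against control replicate 3. The mean share of RNY4 was 42.0% ± 0.121 and 44.1% ± 1.32, and that of RNY3 was 4.84% ± 1.76 and 3.44% ± 0.124 (SD, n = 3). Both differences had an exact permutation p of 0.1, which is the smallest that 3 against 3 libraries allow, and a Benjamini-Hochberg adjusted p of 0.2 over the 4 shares. The share of RNY1 was 29.1% ± 3.85 and 30.2% ± 5.08, and that of RNY5 was 24.1% ± 2.48 and 22.2% ± 3.67 (SD, n = 3, exact permutation p = 0.7 and 0.5). The 4 shares sum to 100% in a library, so they do not move independently. Without control replicate 1 the difference in the RNY3 share was -0.400 percentage points, against -1.40 with all libraries.

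**Figure D3:**
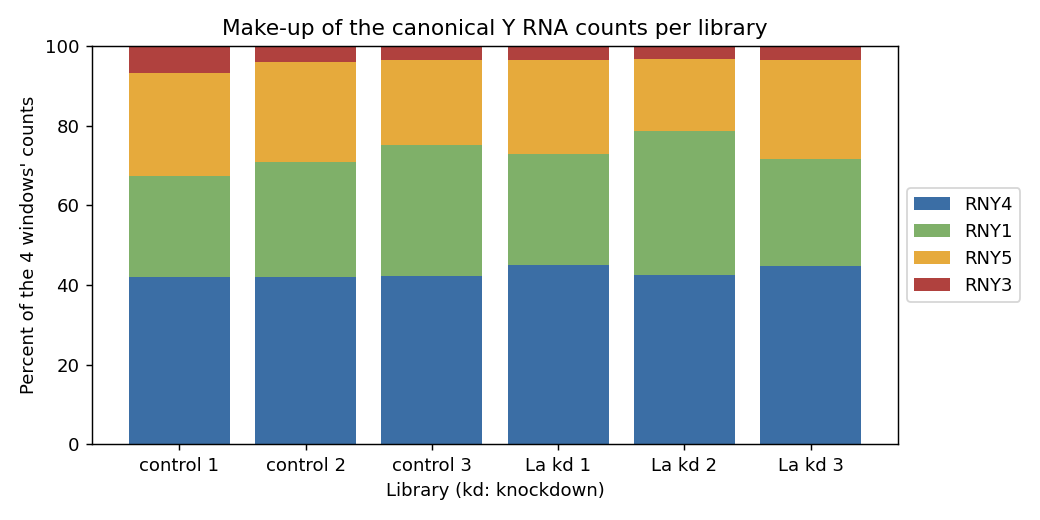
Percent of the summed counts of the 4 canonical Y RNA windows (y axis) given by RNY4, RNY1, RNY5 and RNY3 in each of the 6 libraries (x axis). RNY4 keeps close to 42% in the controls, RNY3 is thickest in control replicate 1 at 6.84%, and RNY1 is thickest in La knockdown replicate 2 at 36.1%.

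Whether the members differed from each other in their response was examined with the log2 ratio of each pair within a library. Of 6 pairs, RNY3 against RNY4 had the largest difference between the arms. The log2 ratio of RNY3 to RNY4 was -2.61, -3.36 and -3.56 in control replicates 1 to 3 against -3.67, -3.69 and -3.68 in the knockdown replicates. Every knockdown library lay below every control, with a difference of -0.51 (exact permutation p = 0.1, Benjamini-Hochberg adjusted over the 6 pairs 0.6). Without control replicate 1 this difference was -0.22. The other 5 differences ran from -0.31 for RNY3 to RNY5 up to 0.49 for RNY1 to RNY3, with exact permutation p from 0.3 to 0.9. With 3 libraries per arm no pair could reach the threshold of 0.05.

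Across the 6 libraries the members did not all vary together. On the log2 CPM scale Pearson's r was 0.89 for RNY4 and RNY5 and 0.72 for RNY3 and RNY5. It was 0.01 for RNY1 and RNY5 and -0.42 for RNY1 and RNY3. These values describe 6 libraries that share their depth and scaling between genes. Outside the Y RNA class, 882 windows with a mean of at least 20 counts were set against the summed level of the 4 members. The most alike were the asparagine tRNA gene TRN-GTT2-5 (r = 0.965, Spearman's rho 0.886), TRN-GTT2-6 (r = 0.965, rho 1), SNORD78 (r = 0.953, rho 0.943) and a start site of ANK1 (r = 0.95, rho 0.829). TRN-GTT2-6 and the phenylalanine tRNA gene TRF-GAA1-6 lay in the same window. SNORD78, a box C/D snoRNA gene, had 2055, 1933 and 1969 CPM in the controls against 2006, 1381 and 2154 after knockdown. As with the sum of the members, La knockdown replicate 2 was the lowest and replicate 3 the highest. The median r over the windows compared was 0.14, and 8 had an r of at least 0.9.

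Other RNA polymerase III genes gave the members their reference, since La binds the same kind of 3′ end in new transcripts of this polymerase. VTRNA1-2, a vault RNA gene, fell by 2.20 on the log2 scale (95% interval -2.78 to -1.63, edgeR adjusted p = 0.00565). VTRNA1-1 fell by 1.86 (95% interval -2.50 to -1.23, edgeR adjusted p = 0.0103). No window was called without La knockdown replicate 1, these 2 included. The intervals of all 4 Y RNA genes lay above that of VTRNA1-2. The log2 ratio of the summed Y RNA counts to VTRNA1-2 was 1.80, 1.78 and 2.28 in control replicates 1 to 3 against 3.92, 4.24 and 4.31 in the knockdown replicates. The arms did not overlap, and the difference was 2.21. Since VTRNA1-2 had already been called with a fall of that size, this ratio is a description, with no test.

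The genes RMRP and RPPH1, the RNA subunits of RNase MRP and RNase P, had log2 fold changes of 0.52 (95% interval -0.05 to 1.09) and 0.44 (95% interval -0.07 to 0.94). RN7SK, which holds back the elongation factor P-TEFb, had 0.15 (95% interval -0.39 to 0.69) in the window at its start site. In a second, overlapping window with more reads (1225 against 194 CPM in the control arm) it had 0.34 (95% interval -0.19 to 0.88, edgeR adjusted p = 0.363). RN7SL1, the RNA of the signal recognition particle, had 0.02 (95% interval -0.49 to 0.53). At their start-site windows none of these 4 was called (edgeR adjusted p = 0.234, 0.247, 0.683 and 0.952). The Y RNA sum against each of them differed between the arms by -0.50 for RMRP, -0.45 for RPPH1, -0.16 for RN7SK and -0.04 for RN7SL1 on the log2 scale. Their exact permutation p was 0.3, 0.1, 0.3 and 0.8, where 0.1 is the smallest possible. These p-values are not adjusted for the number of ratios. Against the second RN7SK window the difference was -0.36 (exact permutation p = 0.3). These ratios were added after the values of the genes were known.

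**Figure D4:**
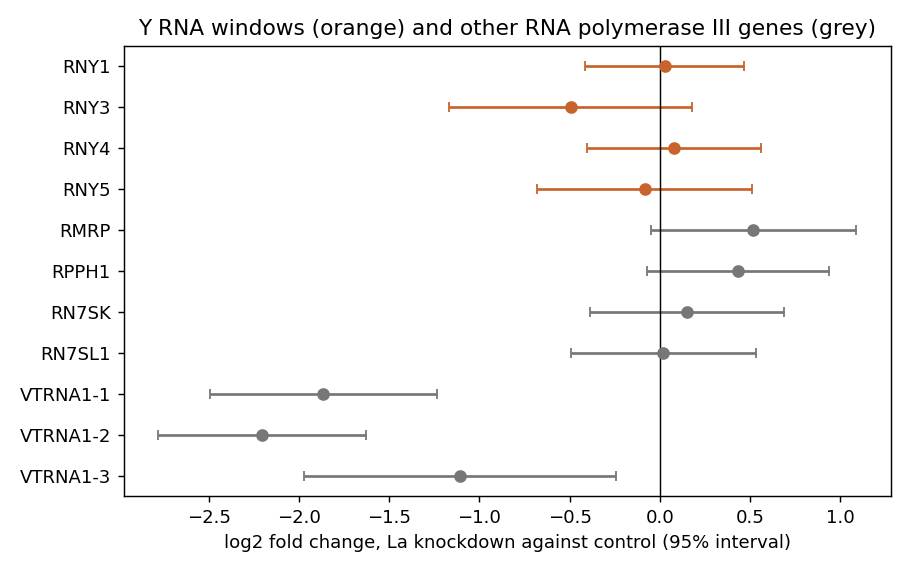
Log2 fold change, La knockdown against control, with its 95% interval from the edgeR fit (x axis) for the 4 canonical Y RNA genes (orange) and 7 other RNA polymerase III genes (grey). The Y RNA intervals all include 0, while those of VTRNA1-1 and VTRNA1-2 lie wholly below -1.2; the interval of VTRNA1-3 also lies below 0, but its adjusted p was 0.135.

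In the list of RNA polymerase III genes, 16 of 17 single symbols had a window, and 17 of their 20 windows were tested. Of these, 2 were lower, the pair of vault RNA genes above, and 0 were higher with edgeR (at an unadjusted p under 0.05, 3 lower and 0 higher, and with DESeq2 2 lower and 0 higher). Their median log2 fold change was 0.05, against -0.05 over all windows tested and -0.03 over the 4 members. RMRP, RN7SK, RN7SL1 and RN7SL2 each had 2 overlapping windows among the 17. Reads of these genes can thus enter that median more than once. In classes taken by label, 13 of 17 tested snAR windows, 31 of 446 tRNA windows and 0 of 46 windows of 5S rRNA were lower, with medians of -2.18, -0.42 and 0.28. Over all windows tested, 51 of 1064 (4.79%) were lower. Windows of the same class may share reads, so they need not be separate observations. No 5S rRNA window was called with DESeq2 either, and 2 were higher at an unadjusted p under 0.05 with edgeR. Without La knockdown replicate 1 edgeR called 0 windows of any kind (at an unadjusted p under 0.05, 72 higher and 103 lower), so each of these calls was lost without it.

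The remaining 69 windows labelled Y_RNA lie across the genome over dispersed copies, and 65 of them matched a Y RNA copy in GENCODE 29. By alignment to RNY1, RNY3 and RNY4, 30 copies were closest to RNY1, 32 to RNY3 and 3 to RNY4. Closest meant the most identical positions, a number not divided by length, and RNY5 was not among the candidates. The members held 97.1% ± 0.520 of all Y_RNA window counts in controls and 97.1% ± 0.549 after knockdown (SD, n = 3, exact permutation p = 0.9). The log2 ratio of the members' sum to that of the dispersed windows was 4.80, 5.22 and 5.29 in control replicates 1 to 3 against 5.30, 4.79 and 5.21 in the knockdown replicates. The arms overlapped, with a difference of -0.0030 (exact permutation p = 0.9). Most of the dispersed sum came from Y_RNA_52519, Y_RNA_51508 and Y_RNA_52891. Their mean counts were 1570, 531 and 462, against 113 for the next window. The ratio therefore says little about the other dispersed windows.

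Reads from stretches that a copy shares with a member cannot be assigned with certainty, which bears most on RNY3. The most counted copy, in window Y_RNA_52519 on chromosome 11 (47726894 to 47726992, minus strand, within the gene FNBP4), was closest to RNY3. Its window had 2686, 1361 and 1582 counts in the controls against 1095, 1165 and 1529 after knockdown. These made 31.6%, 33% and 35.7% of the RNY3 count in the controls and 33.3%, 42.2% and 38.1% in the knockdown libraries. Control replicate 1 was the highest library in both windows. The log2 fold change of this copy was -0.31 (edgeR adjusted p = 0.456), and with its counts added to RNY3 that of RNY3 was -0.45 (edgeR adjusted p = 0.319), an alternative chosen after seeing the data.

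The next most counted copies were Y_RNA_51508 on chromosome 1, which was closest to RNY4, Y_RNA_52891 on chromosome 17 and Y_RNA_51390 on chromosome 12. Y_RNA_51508 had from 0.983% to 1.45% of the RNY4 count in a library. The log2 fold changes of these windows were -0.07 for Y_RNA_51508, -0.21 for Y_RNA_52891 and 0.97 for Y_RNA_51390, and none was called (edgeR adjusted p = 0.867, 0.633 and 0.165). Over the 18 tested dispersed windows the median log2 fold change was 1.09, against -0.03 over the members and -0.05 over all windows tested. None was called with edgeR, and 9 were higher at an unadjusted p under 0.05, against 103 of all 1064 windows tested. All 9 were closest to RNY1, as were most of the 18 tested windows, by a measure not divided by length. DESeq2 called 5 higher, against 23 of all windows. In 11 of the 18 the highest count was in La knockdown replicate 2, and without that library the median was 0.35 and 3 were higher at an unadjusted p under 0.05. The difference between the members and the dispersed windows in this median was not tested. Y_RNA_53023, with the largest log2 fold change of the 18 (1.63), had 5, 5 and 3 counts in the controls. After knockdown it had 10, 15 and 10, so it had enough reads to be tested only through the arm where it was high. The median and the count of 9 thus depend in part on that filter.

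Genes for proteins known to bind or process Y RNAs were examined for small RNA at their start sites. All 22 listed genes, among them RO60, NCL, YBX1 and PUF60, had a window, and none of the 43 windows had enough reads to be tested. The highest count in a library was 15, in an HNRNPL window, and 6 windows had no read. At this depth no difference at these promoters was detectable.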

How the data were processed

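Per the labels' protocols, small RNA came from a mirVana PARIS extraction. Its ends were treated with Antarctic phosphatase and then T4 polynucleotide kinase before NEBNext small RNA library preparation, so RNA with various end groups could be read. Trim Galore, Bowtie2, bedtools and edgeR are named, without versions or roles, in the submitters' processing notes, with GRCh38 as the build. The authors deposited raw read counts of 53603 windows. A second deposited table holds the authors' log2 fold change and average log2 CPM, an F statistic (a score), p-values and adjusted p-values.

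The counts as deposited were fitted here with edgeR 4.0.16 in R 4.3.3 (filterByExpr, TMM factors, arm as the only term, 6 libraries), with Benjamini-Hochberg adjustment over the 1064 windows tested. Standard errors and 95% intervals came from the F statistic. Log2 ratios used a pseudocount of 0.5, except that of the members to the dispersed windows, which used none. Single values were tested with exact two-sided permutation of the arms. Alternatives included DESeq2 1.42.0. The fit was tested on simulated data. Replicates differed by more than sampling noise (lowest chi-square per degree of freedom 61.9).

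Window starts were shifted by 1 to positions as a genome browser shows them. Names came from RefSeq GRCh38.p14 and, for start sites within 50 bp, GENCODE 29, and sequences from GENCODE 29. Copies were aligned with Biopython 1.88. RefSeq matched 4 of 4 members. The sequence of RNY3 is not reported here.

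The members, lists and tests were chosen with earlier results of these data known. Always named were the members, SSB, 5 other RNA polymerase III genes, the 4 most counted dispersed windows and the 4 windows most like the members' sum. Figures were drawn with matplotlib 3.10.9.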

Additional observations from a re-analysis of the deposited data

How the results depend on the processing

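No log2 fold change of a member crossed the threshold in any alternative. Of 58 such values, counted over members and settings, 11 reversed a sign. Values of different members under the same setting come from 1 fit and share its libraries and scaling. RNY1 reversed to -0.063 with library size alone and to -0.22 without a filter, RNY4 to -0.0033 and -0.16 under the same settings, and RNY5 to 0.24 with upper quartile factors. Leaving out 1 library gave from -0.071 to 0.15 for RNY1, from -0.69 to -0.13 for RNY3, from -0.12 to 0.23 for RNY4 and from -0.36 to 0.15 for RNY5. Over the same fits the share of all counts differed by -0.471 to 0.123 percentage points, and it reversed to 0.385 outside rRNA windows. The shares among the 4 differed by -1.75 to 3.14 for RNY1, -2.04 to -0.400 for RNY3, 1.73 to 2.87 for RNY4 and -3.28 to 0.210 for RNY5. The log2 ratio RNY1 to RNY4 ranged from -0.18 to 0.078 and RNY1 to RNY5 from -0.099 to 0.36. Members against dispersed windows ranged from -0.15 to 0.15 and reversed to 0.011 with dispersed windows of at least 20 counts. Windows called higher, 7 with all libraries, became 58 with upper quartile factors, 23 with DESeq2, 4 without a filter and 4 with a mean of at least 20 counts, and from 0 to 21 without 1 library. Windows called lower, 51 with all libraries, became 104 without a filter and from 0 to 98 without 1 library. The lowest counts came without La knockdown replicate 1, the highest without La knockdown replicate 3. Apart from the windows and libraries that each setting removes, the cause was not tested.

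A replicate block gave 20 windows higher and 88 lower, and the members had 0.035 (RNY1), -0.45 (RNY3), 0.054 (RNY4) and -0.14 (RNY5). The labels give same-numbered libraries only a number in common and do not state whether they were paired. The correlations of their deviations were 0.13, 0.22 and -0.45. So few values cannot decide whether the libraries were paired.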
